A study of Mus musculus with 4 samples.

Results

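The 80 cytosolic ribosomal protein genes described here are the rows of a mouse gene count table whose symbols follow the names of the small subunit (Rps and Rpsa, 32 genes) or the large subunit (Rpl and Rplp, 48 genes), leaving out names marked as pseudogenes. Their rows were taken by symbol alone, though the group was chosen with earlier results of these data known. They make up 80 of 13289 rows, and all 80 passed the low-count filter. The table comes from bulk RNA-seq of polyadenylated RNA from the cerebral cortex of mouse embryos at embryonic day 15, with 2 control libraries (titled WT) and 2 libraries in which the transcription factor gene Lhx2 is labelled as conditionally knocked out (titled Lhx2cKO). The driver of the deletion, the allele, the strain and the pooling of embryos are not given in the sources used here, and nothing in the labels says that the libraries came from separate litters, so p-values measure the spread between these libraries. Each library is a mix of all cells of the cortex, so fewer cells of a type and less RNA per cell cannot be told apart.

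Each cytosolic ribosome carries, with few exceptions, a single copy of each ribosomal protein, and these proteins assemble on ribosomal RNA in the nucleolus. Their messages are among the most abundant in growing cells, and many begin with a 5′ terminal oligopyrimidine tract (TOP), a C followed by a run of C and T, through which the mTORC1 kinase pathway and the RNA-binding protein Larp1 set their translation. In the developing cortex, dividing progenitors have a high demand for new ribosomes, and ribosomal protein genes are also known for their many processed pseudogenes, intronless copies that share most of the parental sequence.

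Lhx2 was at 316 and 287 CPM in control and at 239 and 247 CPM in Lhx2 cKO (adjusted p 0.0191 in edgeR), where CPM are counts scaled to a common library total with the TMM correction for composition. Neuron markers summed to 6010 and 5800 CPM in control against 6480 and 6760 CPM in Lhx2 cKO. Radial glia markers summed to 777 and 822 CPM in control against 762 and 738 CPM in Lhx2 cKO. The groups did not overlap in either sum. Of 10 markers of cycling cells 9 were called lower and 0 higher (median log2 fold change -0.65), with sums of 404 and 456 CPM in control against 271 and 269 CPM. Of 10 microglia markers 9 were called higher and 0 lower (median 1.34), with sums of 123 and 127 CPM in control against 259 and 286 CPM. Of 10 red blood cell markers 8 were tested, with 5 called lower and 1 higher (sums of 3200 and 2360 against 2150 and 1920 CPM). Their median was -0.4, and it was -0.17 without control 1 and -0.61 without control 2. Vascular markers had 5 of 9 higher and 2 lower (270 and 300 against 312 and 346 CPM), radial glia markers 1 of 10 higher and 4 lower, and neuron markers 3 of 10 higher and 2 lower. Of 6 choroid plexus markers Aqp1 alone was tested, at 1.28 to 1.52 CPM, and the others are not analysed here. The part of these cell types in the ribosomal protein values was not tested.

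Starts of transcription were available from RefSeq (build GRCm38.p6) for 60 of the 80 genes, and the windows of 6 of the 7 genes that differed from the summed change of all 80 are shown, with those of Rpl4 and Rpl35 as examples of a tract at the start. Each sequence runs 5′ to 3′ on the gene's strand, from 40 bases before to 20 bases after the annotated start. Capitals mark a C followed by at least 5 C or T and beginning within 15 bases of the start, the letters CCGGAAG on either strand, or the palindrome made of TCTCG followed by its reverse complement.
Rpl7a, chr2:26910767-26910826, plus strand: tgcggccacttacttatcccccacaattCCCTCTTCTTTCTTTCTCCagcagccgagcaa
Rpl26, chr11:68901526-68901585, plus strand: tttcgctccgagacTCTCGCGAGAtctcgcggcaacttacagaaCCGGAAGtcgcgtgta
Rpsa, chr9:120127726-120127785, plus strand: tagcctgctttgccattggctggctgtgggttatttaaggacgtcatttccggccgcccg
Rps19, chr7:24884552-24884611, plus strand: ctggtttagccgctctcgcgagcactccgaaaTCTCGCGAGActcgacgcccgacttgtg
Rps25, chr9:44407674-44407733, plus strand: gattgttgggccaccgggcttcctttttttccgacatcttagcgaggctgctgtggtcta
Rpl23, chr11:97782420-97782479, minus strand: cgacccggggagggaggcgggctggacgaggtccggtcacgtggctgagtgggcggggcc
Rpl4, chr9:64173347-64173406, plus strand: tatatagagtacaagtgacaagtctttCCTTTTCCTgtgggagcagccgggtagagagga
Rpl35, chr2:39005112-39005171, minus strand: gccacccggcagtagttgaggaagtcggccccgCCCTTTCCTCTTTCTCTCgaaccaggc

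A pyrimidine tract of this kind was found for 37 of the 60 genes (61.7%), against 29.0% of 27025 genes with a window of the same length. The letters CCGGAAG, the core recognised by ETS-family factors, lay in the whole window, from 250 bases before to 50 after the start, of 25 of the 60 (41.7%), against 9.93% of all genes. The palindrome, searched on both strands like CCGGAAG and sharing no bases with it in the sequences shown, was found for 6 of the 60 (Rpl10a, Rpl12, Rpl26, Rps6, Rps19 and Rps28), or 10%, against 0.525% of all genes. Of the genes shown that left the trend, Rpl26 (below it) and Rps19 (above it) hold the palindrome, and Rpl7a, Rpsa, Rps25 and Rpl23 do not. The other holders did not leave the trend. A link between the palindrome and the changes was not tested. Rps19 has 3 annotated starts in the table, and its first is shown. The base of 27025 genes was not limited to the 13288 genes tested in these libraries, and a base of tested genes was not computed. A match is a description of these letters, not a measured binding site.

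The ribosomal protein genes together took a slightly smaller share of the counts in Lhx2 cKO. The 80 genes held 0.996% of the counts in control 1 (95% exact Clopper-Pearson interval 0.9917% to 0.9995%) and 0.963% in control 2 (0.959% to 0.9668%). They held 0.94% in Lhx2 cKO 1 (0.9359% to 0.944%) and 0.927% in Lhx2 cKO 2 (0.9234% to 0.9311%). Both Lhx2 cKO libraries were thus below both controls, with group means of 0.979% ± 0.0231 and 0.934% ± 0.00897 (SD, n = 2), so that the Lhx2 cKO mean was 95.3% of control. With 2 libraries against 2, an exact two-sided permutation test cannot give a p below 0.33, and none is given. The difference was -0.0456 percentage points, and it was -0.0293 without control 1 and -0.062 without control 2. How reads with several matches were treated is not given in the sources used here. The shares are therefore of counts assigned to these 80 rows, not of all ribosomal protein messages.

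Whether the groups overlapped depended on the scale. Messages of the mitochondrial genome took 10.6% ± 0.846 of the counts in control and 11.8% ± 1.54 in Lhx2 cKO (SD, n = 2), with the highest share, 12.9%, in Lhx2 cKO 2. Of the counts without them the ribosomal protein genes held 1.12% and 1.07% in the controls, against 1.05% and 1.06% in the Lhx2 cKO libraries. On the scale of TMM-scaled CPM the summed level was 10100 and 9420 in the controls, against 9210 and 9530 in the Lhx2 cKO libraries, and the groups overlapped. The large subunit genes held 0.525% and 0.52% of the counts in control and 0.496% in each Lhx2 cKO library, which do not overlap, and the small subunit genes held 0.471% and 0.443% against 0.444% and 0.431%, which do. On the TMM scale the large subunit sums, 5330 and 5090 against 4860 and 5100 CPM, overlapped too.

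**Figure D1:**
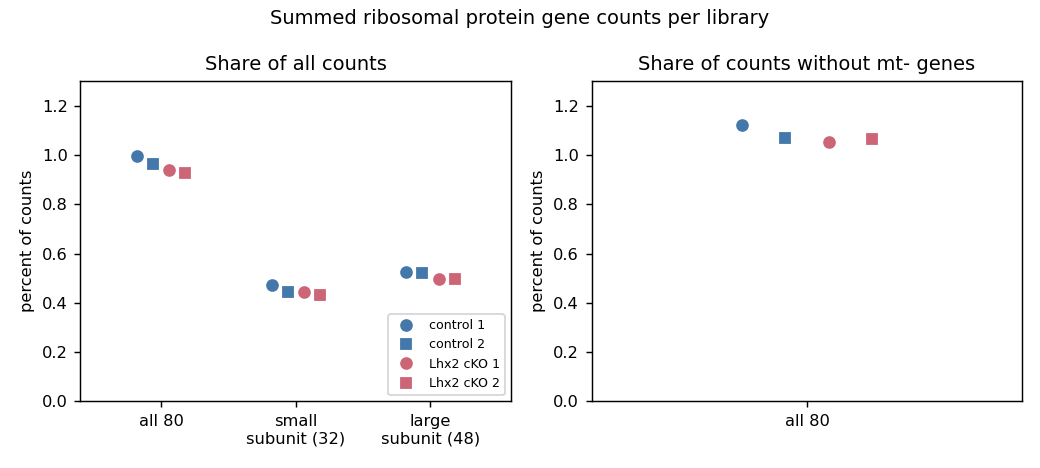
Percent of counts (vertical axis, from 0) held by all 80 ribosomal protein genes, the 32 small subunit genes and the 48 large subunit genes in each library, left over all counts and right over counts without mt- genes. Each point is 1 library; the Lhx2 cKO points lie just below the control points for all 80 genes, at 0.94% and 0.927% against 0.996% and 0.963%.

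Most of the genes differed little between the groups. The median log2 fold change of the 80 genes was -0.05, with a middle range (quartiles) of -0.2 to 0.044, against 0.0034 over all 13288 genes tested (quartiles -0.17 and 0.21). The SD of the log2 fold changes was 0.205 over the 80 genes and 0.436 over all genes. These sets were not matched for level. For 61 of the 80 the change was smaller than 1.2-fold. By subunit, the median was -0.027 for the small subunit and -0.07 for the large subunit.

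In edgeR's quasi-likelihood test 11 of the 80 genes (13.8%) passed an adjusted p of 0.05, against 20.8% of all genes tested, so the share of ribosomal protein genes called was below the background. Of the 11, 9 were lower in Lhx2 cKO (background 9.17%) and 2 were higher (background 11.6%). The Lhx2 cKO libraries lay below both controls for 26 of the 80 genes, against 29.1% of all genes, and above both for 10 of the 80, against 30.2%. In the authors' deposited table, adjusted p was under 0.05 for 10 of the 80 genes (background 20.5%), and all 10 were also called here, the exception being Rps25.

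**Figure D2:**
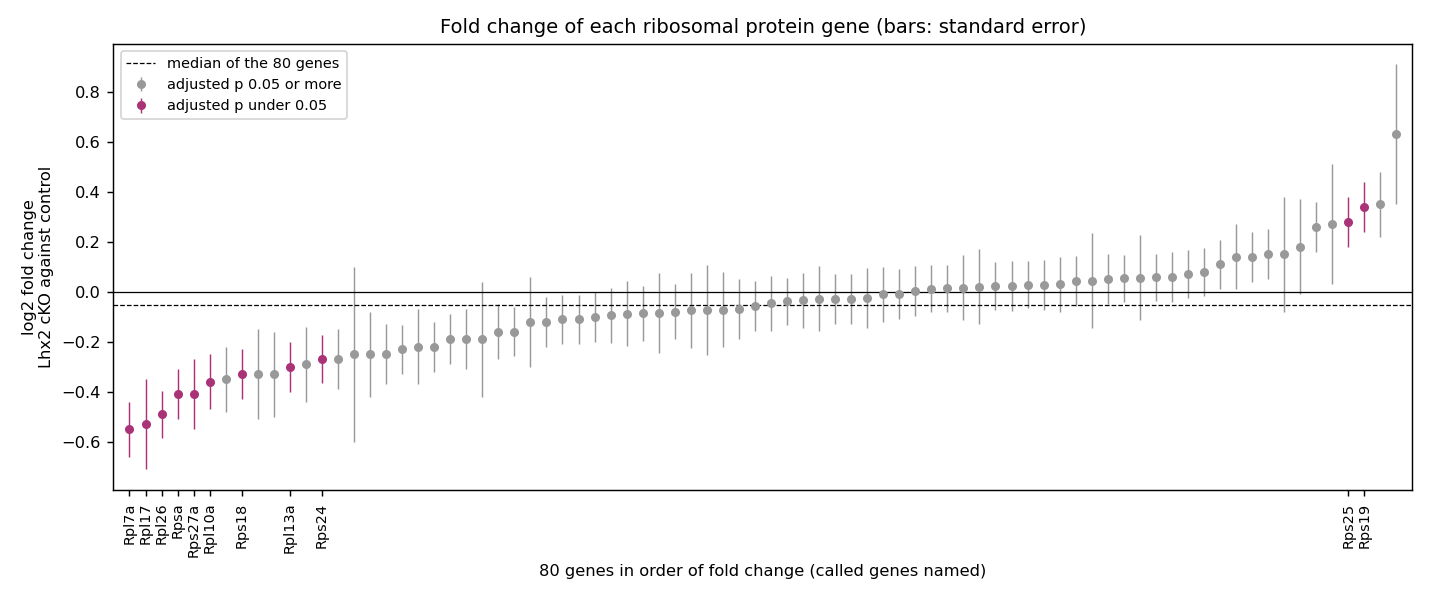
Log2 fold change (Lhx2 cKO minus control) for each of the 80 genes, ordered by value, with the called genes named on the axis, bars for 1 standard error and the median (-0.05) as a dashed line. The 9 genes called lower lie in the left part, from Rpl7a at -0.55 to Rps24 at -0.27, and Rps25 and Rps19 are called near the right end.

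Rpl7a and Rpl26, both proteins of the large subunit, fell most clearly. Rpl7a was at 47.6 and 43.4 CPM in control and at 30.4 and 31.9 CPM in Lhx2 cKO, and every Lhx2 cKO value lay below every control value. The group means were 45.5 ± 2.96 and 31.1 ± 1.03 CPM (SD, n = 2), and its log2 fold change was -0.55, with an SE of 0.11 and an adjusted p of 0.000161 in edgeR. Rpl26, which sits near the exit of the tunnel through which the new protein leaves and is also known to bind the p53 message, was at 130 and 120 CPM in control and at 88.1 and 89.8 CPM in Lhx2 cKO. The groups were again separate, with means of 125 ± 6.81 and 88.9 ± 1.16 CPM (SD, n = 2), and the log2 fold change was -0.49 (SE 0.095, adjusted p 0.000136). Of the 11 called genes, these 2 kept their call when any 1 library was left out, with log2 fold changes from -0.61 to -0.49 for Rpl7a and from -0.55 to -0.45 for Rpl26.

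Rpsa, a small subunit protein at the channel through which the message leaves and also described as a laminin receptor, was the most abundant of the genes called lower. It was at 291 and 245 CPM in control and at 190 and 212 CPM in Lhx2 cKO, which do not overlap. Its log2 fold change was -0.41 (SE 0.1, adjusted p 0.0022 in edgeR), and without control 1, the highest library, it was -0.3 with an adjusted p of 0.0809. Rpl10a, a large subunit protein used in tagged form to purify ribosomes, was at 74.6 and 78.3 CPM in control and at 68.3 and 51.1 CPM in Lhx2 cKO, with a log2 fold change of -0.36 (adjusted p 0.0143). Lhx2 cKO 2 was the lowest library, and without it the log2 fold change was -0.17 with an adjusted p of 0.477.

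The other 5 genes called lower had smaller or less certain changes. Rps24, mutated in Diamond-Blackfan anemia (a failure of red cell production), was at 226 and 211 CPM in control and at 173 and 189 CPM in Lhx2 cKO, with a log2 fold change at -0.27 and an adjusted p of 0.0372 in edgeR. Rpl13a was at 70.5 and 67.3 against 53 and 58.5 CPM, with a log2 fold change at -0.3 and an adjusted p of 0.0247. Rps18 was at 57.4 and 52.3 against 41.4 and 45.6 CPM, with a log2 fold change at -0.33 and an adjusted p of 0.016. All 3 had groups that did not overlap, and all 3 lost their call without control 1 (adjusted p 0.19, 0.116 and 0.141) and without Lhx2 cKO 1 (0.25, 0.203 and 0.149).

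Rps27a, made as a fusion with ubiquitin, was at 22.6 and 20.3 CPM in control and at 17.8 and 14.6 CPM in Lhx2 cKO, with a log2 fold change at -0.41 and an adjusted p of 0.0312 in edgeR. Rpl17, another protein of the tunnel exit, was at 12.3 and 11.4 against 9.23 and 7.23 CPM, and its log2 fold change was -0.53, with an SE of 0.18 and an adjusted p of 0.0285. The groups of both genes were separate, and the low levels leave wide errors. With DESeq2, Rps27a (adjusted p 0.0824), Rpl17 (0.0768) and Rpl10a (0.0504) were not called. The calls of Rps27a and Rpl17 were also lost without control 1 (adjusted p 0.207 for Rps27a and 0.148 for Rpl17) and without Lhx2 cKO 2 (0.334 and 0.319). Rps18, Rps27a and Rpl10a have exons that overlap an annotated gene on the other strand (Vps52, Clhc1 and CT025652.2), and since the use of strand is not stated, reads of the partners cannot be told apart.

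The 2 genes called higher belong to the small subunit. Rps19, the gene most often mutated in Diamond-Blackfan anemia, was at 47.8 and 48.4 CPM in control and at 58.6 and 63.2 CPM in Lhx2 cKO. Both Lhx2 cKO libraries lay above both controls, with means of 48.1 ± 0.436 and 60.9 ± 3.27 CPM (SD, n = 2), and the log2 fold change was 0.34, with an SE of 0.1 and an adjusted p of 0.0115 in edgeR. The call was lost without control 1 (0.32, adjusted p 0.075) and without Lhx2 cKO 2 (0.28, adjusted p 0.151). Rps25, known for its part in initiation at internal ribosome entry sites, was at 39.7 and 36.9 against 45.6 and 47.5 CPM, and its log2 fold change was 0.28, with an SE of 0.1 and an adjusted p of 0.0468. Its call was lost in each of the 4 fits without 1 library, with adjusted p from 0.0824 to 0.251, and with DESeq2 (0.111). It shares exon positions with Trappc4 and Ccdc84 on the other strand.

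A second fit asked which genes left the common trend. It used the summed counts of the 80 genes as the size of each library, so that a deviation is the log2 fold change of a gene relative to the sum of them all. Of the 80 genes, 7 (8.75%) passed an adjusted p of 0.05 in this fit, against 19.4% of all genes tested. Of these 7, 3 deviated downward (background 5.83%) and 4 upward (background 13.5%). This scaling centres the 80 genes on their own sum and shifts all other genes, so these backgrounds are not a like base. The 3 below the trend were Rpl7a at -0.49 (SE 0.13, adjusted p 0.00165), Rpl26 at -0.43 (SE 0.11, adjusted p 0.00119) and Rpsa at -0.35 (SE 0.11, adjusted p 0.00813). The 4 above it were Rpl21 at 0.4 (SE 0.15, adjusted p 0.0347), Rps19 at 0.4 (SE 0.12, adjusted p 0.00841), Rps25 at 0.34 (SE 0.13, adjusted p 0.037) and Rpl23 at 0.32 (SE 0.12, adjusted p 0.0385).

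Rpl21 and Rpl23 passed relative to the sum but not in the first fit. Rpl21, mutated in a hereditary hair loss, was at 17.4 and 22.4 CPM in control and at 25.9 and 24.7 CPM in Lhx2 cKO, and its log2 fold change in the first fit was 0.35 (adjusted p 0.0545 in edgeR). Rpl23, which binds the p53 regulator Mdm2, was at 68.5 and 58.8 against 73.9 and 78.1 CPM, with a log2 fold change of 0.26 (adjusted p 0.0649). In both genes the groups were separate, with the Lhx2 cKO libraries above. Control 1 was the lowest library for Rpl21, and without it the deviation was 0.19 (adjusted p 0.549) and the log2 fold change of the first fit 0.16 (adjusted p 0.574). Without control 2 the deviation was 0.65 and the log2 fold change 0.54, and both passed the threshold. Without Lhx2 cKO 2 none of the 80 genes deviated at an adjusted p of 0.05 in edgeR and 5 did at an unadjusted p under 0.05, although the deviations kept their sign: Rpl7a was then at -0.5 (adjusted p 0.0601), Rpl26 at -0.42 (0.0661) and Rpsa at -0.41 (0.062). Without Lhx2 cKO 1, Rpl26 was the one gene of the 7 that still passed, and Rpl7a was at -0.48 (adjusted p 0.0586). The count was 2 without Lhx2 cKO 1, 4 without control 1 and 5 without control 2.

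**Figure D3:**
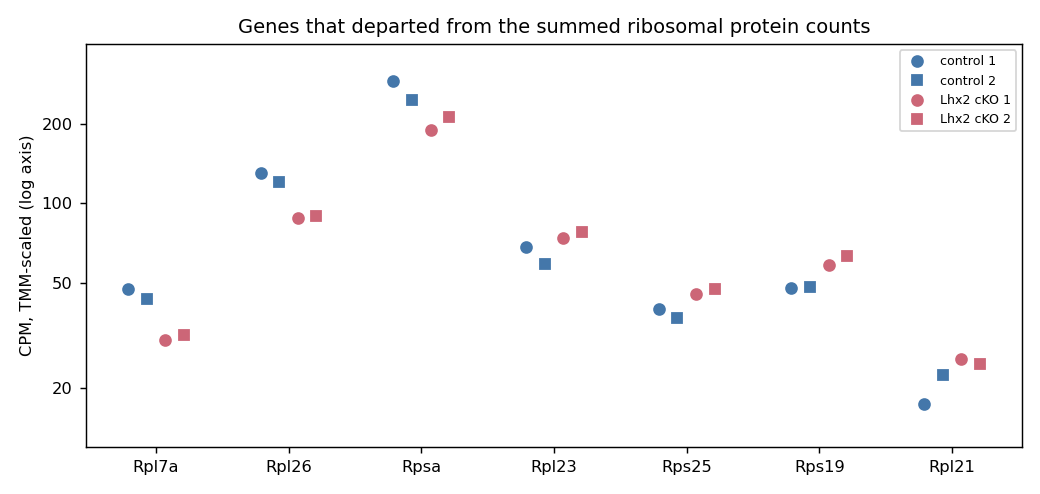
TMM-scaled CPM (log axis) in each library for the 7 genes that left the common trend, ordered by their deviation. In Rpl7a, Rpl26 and Rpsa both Lhx2 cKO points lie below both control points, and in Rpl23, Rps25, Rps19 and Rpl21 they lie above.

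Functional groups within the ribosome gave small medians of mixed sign. The acidic stalk (Rplp0, Rplp1, Rplp2 and Rpl12), which recruits translation factors, had a median log2 fold change of 0.012 with 0 of 4 genes called in edgeR, 0 at an unadjusted p under 0.05 and 0 by DESeq2 or limma-voom. Its most abundant gene, Rplp0, was at 462 and 413 CPM in control and at 429 and 483 CPM in Lhx2 cKO, and the groups overlapped. Rplp1 was at 242 and 220 against 234 and 276 CPM. Of the 2 proteins that form a particle with 5S RNA and bind Mdm2 when free, Rpl11 was at 23.5 and 22 against 17.8 and 17.9 CPM, a log2 fold change of -0.35 that missed the threshold (adjusted p 0.0533 in edgeR), and Rpl5 was at 21 and 22.1 against 22.2 and 18.5 CPM, with a log2 fold change of -0.087 (adjusted p 0.702).

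Among 8 genes whose proteins line or sit near the tunnel exit (Rpl17, Rpl19, Rpl22, Rpl23a, Rpl26, Rpl31, Rpl35 and Rpl39), the median log2 fold change was -0.15 and 2, Rpl17 and Rpl26, were called lower (25%, against 9.17% of all genes called lower). The 5 genes at the entry and exit of the message (Rps2, Rps3, Rpsa, Rps26 and Rps28) had a median of 0.055, with Rpsa called lower (20% called, near the 20.8% of all genes). That median was -0.064 without Lhx2 cKO 2 and 0.0053 with the trend of gene length removed. Of 9 genes whose human counterparts are mutated in Diamond-Blackfan anemia, Rps19 was called higher and Rps24 lower (22.2% called, near the 20.8% of all genes), and the median was -0.073. With so few genes in each group, nothing is read from these shares.

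Of 7 paralogs of ribosomal proteins, 3 were tested. Rpl22l1, the paralog of Rpl22, was at 10 and 11.2 CPM in control and at 11.2 and 10.9 CPM in Lhx2 cKO, or 0.0467 to 0.0607 of the level of Rpl22, without regard to length. Rps27l, the paralog of Rps27 and a known p53 target, was at 31.4 and 30 against 27.4 and 32.9 CPM, which overlap. Rpl7l1 was at 65.2 and 62.1 CPM in control and at 58.8 CPM in both Lhx2 cKO libraries, with a log2 fold change of -0.11 (adjusted p 0.458 in edgeR). None of the 3 paralogs and none of the 7 parental genes was called by edgeR, DESeq2 or limma-voom, and 0 of these 10 had an unadjusted p under 0.05 in edgeR.

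Levels of the 80 genes spread widely. Mean CPM over the 4 libraries ran from 2.47 for Rpl24 to 656 for Rpl8, a ratio of 265, with a median of 46.9. The most abundant were Rpl8, Rps3 (606 CPM), Rpl4 (582) and Rps15 (493), and the 10 most abundant held 51.6% of the counts of all 80. The 5 least abundant were Rpl24, Rps29 (3.91 CPM), Rpl38 (5.05), Rps27 (5.57) and Rpl31 (5.67). Rps29 had the highest log2 fold change of the 80, 0.63, but with an SE of 0.28 and 72 to 124 counts per library it did not pass the threshold (adjusted p 0.103 in edgeR). Per kilobase of the deposited gene length, the median level was 19 CPM for the 80 genes and 5.8 CPM for all genes tested, with Rps15 highest at 783 and Rpl24 lowest at 2.4.

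Much of the sequence of these messages is shared with other genes. In the GENCODE M21 transcripts, a median of 46.2% of the 50-base stretches of a gene's main transcript also occurred in a transcript of another gene, and 79 of the 80 genes shared such stretches with an annotated pseudogene, at a median of 8 pseudogenes. The share was 3% for Rps3 and 7.9% for Rpl8, both among the most abundant, and among the least abundant it was 98.6% for Rps27 and 81.7% for Rpl24, but 40.2% for Rpl38, 35.8% for Rps29 and 32.9% for Rpl31. For the 11 genes under 20% the median level was 43.9 CPM per kilobase, and it was 14.6 for the 34 genes from 20% to 50%, 19.4 for the 19 from 50% to 80% and 15.7 for the 16 over 80%. Across the 80 genes, which share the same 4 libraries, level per kilobase and shared percent had a Spearman rho of -0.27, given as a description. With the length of the main transcript in place of the deposited gene length, rho was -0.17. For mean CPM without regard to length, rho with the shared percent was -0.37.

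**Figure D4:**
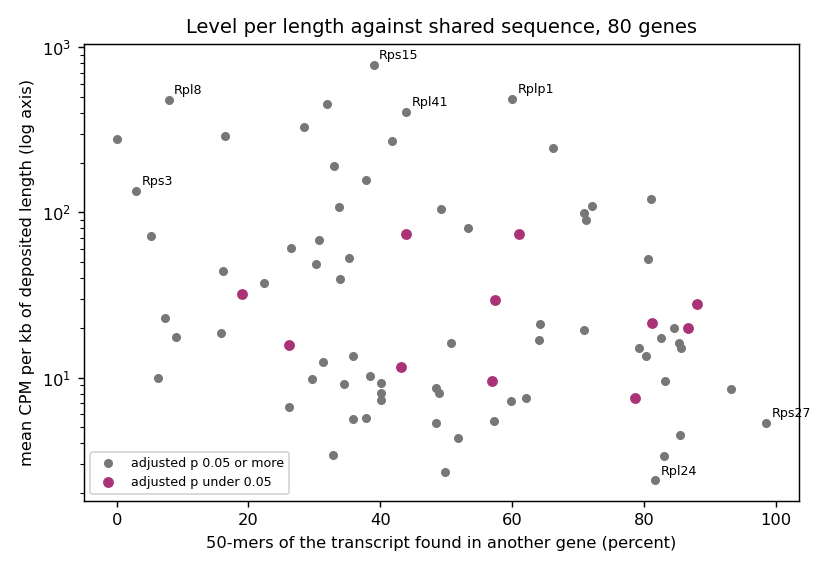
Mean CPM per kilobase of deposited gene length (log axis) against the percent of 50-base stretches of the main transcript that occur in another gene, for the 80 genes. Rps3 and Rpl8 lie high at the left and Rps27 and Rpl24 low at the right, with wide scatter between.

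The 5 rows named as copies of a ribosomal protein gene held more counts than the genes they copy, and all 5 are annotated as protein coding in GENCODE M21. Rps27rt, an intronless copy that holds 98.6% of the 50-base stretches of Rps27, was at 181 and 168 CPM in control and at 158 and 177 CPM in Lhx2 cKO, while Rps27 itself was at 4.88 to 6.06 CPM. Rpl9-ps6, which holds 86.1% of those of Rpl9, was at 135 to 151 CPM against 21.1 to 28.5 CPM for Rpl9. Rps18-ps5, which holds 66.3% of those of Rps18, was at 151 and 141 CPM in control and at 123 and 144 CPM in Lhx2 cKO. Rpl10-ps3 and Rpl36a-ps1 were at 1.94 and 1.57 times the level of Rpl10 and Rpl36a. How reads with several matches were treated is not given in the sources used here, so the split of counts between a gene and its copies is uncertain.

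The called gene Rps18 has such a copy. It was called lower at -0.33, while Rps18-ps5 had a log2 fold change of -0.12 (adjusted p 0.41 in edgeR). Summed, the pair was at 208 and 193 CPM in control and at 165 and 190 CPM in Lhx2 cKO, and the groups stayed separate by 3 CPM. The 3 genes with the largest falls, Rpl7a, Rpl17 and Rpl26, shared 81.2%, 78.7% and 61% of their 50-base stretches, with 119, 50 and 12 pseudogenes. Of the 9 genes called lower, 7 lay at 50% or more and 2 (Rpsa at 43.9% and Rps24 at 19.1%) below it, while both genes called higher lay below it. The part that shared sequence has in these calls was not tested. Over the 45 genes under 50% alone, the median log2 fold change was -0.027. Their summed share was 0.764% ± 0.0223 in control and 0.729% ± 0.00359 in Lhx2 cKO (SD, n = 2). The 35 genes at 50% or more held 0.215% ± 0.000807 in control and 0.205% ± 0.00538 in Lhx2 cKO. The Lhx2 cKO mean was 95.4% of control for the genes under 50% and 95.3% for the others, in sums that weigh abundant genes most. By gene, the median log2 fold change was -0.034 under 20% and -0.026 from 20% to 50%. It was -0.072 from 50% to 80% and -0.13 over 80%. Across the 80 genes, log2 fold change and shared percent had a Spearman rho of -0.23, given as a description.

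**Figure D5:**
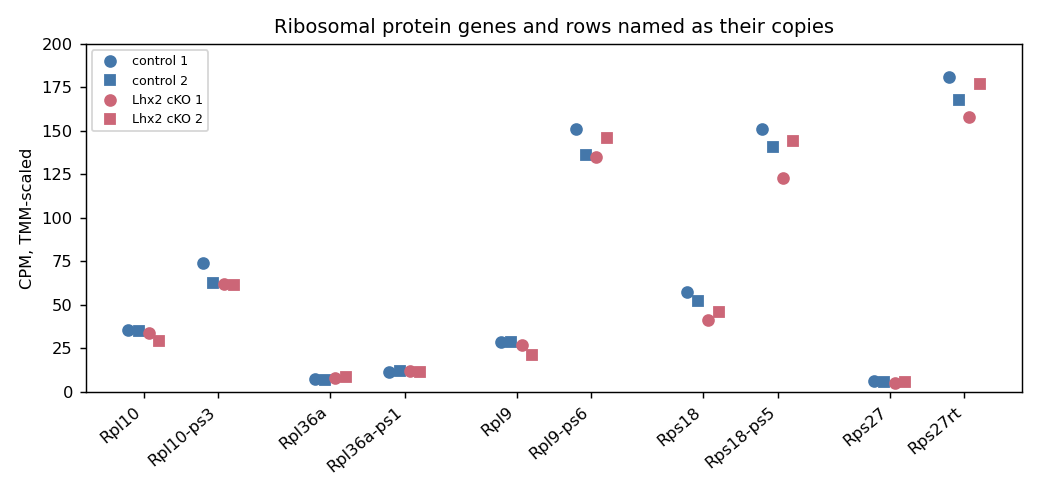
TMM-scaled CPM (from 0) in each library for 5 ribosomal protein genes and, beside each, the row named as its copy. Every copy lies above its parent, most of all Rps27rt at 158 to 181 CPM beside Rps27 at 4.88 to 6.06 CPM.

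Lists of other genes of the translation machinery stand beside the 20.8% of all genes tested that were called. The messages of other proteins with a TOP tract, such as the elongation factors Eef1a1 and Eef2, had a median log2 fold change of -0.041, with 1 of 17 called (5.88%). That gene, the histone chaperone gene Nap1l1, was at 166 and 180 CPM in control and at 138 and 136 CPM in Lhx2 cKO, with a log2 fold change at -0.34 and an adjusted p of 0.00805 in edgeR. Without control 2 its adjusted p was 0.0867, and without Lhx2 cKO 2 it was 0.0533. Rack1, a ribosomal component whose symbol follows another rule, was at 806 and 728 CPM in control and at 732 and 738 CPM in Lhx2 cKO, and was not called (adjusted p 0.742 in edgeR).

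Of 44 genes for ribosome assembly, 3 were called lower and 0 higher (6.82% called), with a median of -0.041. Ubtf, which activates RNA polymerase I on ribosomal DNA, was at 244 and 209 CPM in control and at 170 and 165 CPM in Lhx2 cKO, with a log2 fold change at -0.44 and an adjusted p of 0.000896 in edgeR, and was still called whichever 1 library was left out. Nvl, an ATPase of large subunit assembly, had a log2 fold change of -0.3 (adjusted p 0.0232), and Ltv1, a small subunit assembly factor, one of -0.39 (adjusted p 0.0434). Nvl lost its call without control 2 (0.158) and without Lhx2 cKO 2 (0.175). Ltv1 lost it in each of the 4 fits without 1 library (0.0824 to 0.186) and under DESeq2 (0.091). Of 9 ribosomal protein chaperones listed, 8 were tested. These had 0 of 8 called in edgeR, DESeq2 and limma-voom, 0 at an unadjusted p under 0.05, and a median of -0.1.

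Among 18 regulators of ribosomal protein supply, 1 was called (5.56%). Akt1s1, which encodes an inhibitory subunit of mTORC1, was at 145 and 113 CPM in control and at 91.4 and 90.9 CPM in Lhx2 cKO, a log2 fold change of -0.5 (adjusted p 0.000328 in edgeR). Without control 1, the highest library, it was -0.32 (adjusted p 0.0534). Mycn, which drives ribosomal genes in progenitors, was at 113 and 124 against 107 and 110 CPM and was not called (adjusted p 0.38). Mtor was at 95.9 and 98.7 against 86 and 86.3 CPM (adjusted p 0.203), and Larp1 at 251 and 249 against 258 and 234 CPM (adjusted p 0.9). The list's median was -0.064. Of 77 genes for mitochondrial ribosomal proteins, 0 were called by edgeR, DESeq2 or limma-voom and 4 had an unadjusted p under 0.05 in edgeR, with a median of 0.021. Their summed share was 0.214% in both controls and in Lhx2 cKO 2 and 0.218% in Lhx2 cKO 1. Of 10 snoRNA host genes listed, 5 were tested. These had a median of -0.031 with 0 calls by the 3 tools and 0 at an unadjusted p under 0.05.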

How the data were processed

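Gene counts from 4 RNA-seq libraries of embryonic day 15 mouse cortex were used. The authors deposited unnormalized read counts for each gene, 22294237 to 24609627 per library over 13289 genes with at least 102 counts in total, and totals and CPM are over these genes; 3 counts, the floor of detection, equal 0.122 to 0.135 CPM, and intervals cover counting error only. Per the submitters' processing notes, Trim Galore, Subread, featureCounts, edgeR and build mm39 were used; settings, strand and annotation are not given in the sources used here. The authors' deposited log2 fold changes and adjusted p-values are quoted where named, the deposited -log10 column was not used, and the deposited gene length gave levels per kilobase.

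The main test was edgeR 4.0.16 in R 4.3.3 (TMM, filterByExpr with its minimum of 10 counts, quasi-likelihood test, Benjamini-Hochberg over 13288 genes; 1 gene was filtered out). The second fit used the summed counts of the 80 genes as library size. Alternatives, with limma 3.58.1 and DESeq2 1.42.0 among them, are given in the closing section. Libraries of a group were not duplicates: chi-square over its degrees of freedom was 13.9 (control) and 14.3 (Lhx2 cKO). Shared 50-base stretches came from GENCODE M21 transcripts (GRCm38), matched by gene identifier. Genes named were those leaving the trend by at least 0.2 (at most 10 each way), the 5 highest and 5 lowest in level, the stalk, 5S, paralog and parent groups, and up to 4 called genes per other list; the other called genes, some members of groups, and non-called genes of the lists were named after their values were seen. Some genes that this rule or a list takes in are not reported here by name. Members and lists were chosen with earlier results of these data known.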

Additional observations from a re-analysis of the deposited data

How the results depend on the processing

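Of the values recomputed for single genes, 1184 of 1261 kept their direction and side of the threshold, 66 lost a call, 11 gained one and 0 reversed. Over the 11 alternatives with all libraries, between 8 (DESeq2) and 15 (replicate block with the gene length trend removed) of the 80 genes were called, with 7 to 13 lower. Genes called higher were 1 with RLE size factors, with library totals alone, with the gene length trend removed and with DESeq2, where Rps25 lost its call. No label says that same-numbered libraries belong together. Deviations of same-numbered libraries from their group means had a correlation of 0.00097 over all genes and 0.2 over the 80 genes. The replicate block gave 12 calls, 11 of them shared, with Rpl21 gained (adjusted p 0.0436), and 5 genes off the trend, 2 of them higher, with Rps25 and Rpl23 lost (adjusted p 0.0709 each). With the median of ratios over the 80 genes as reference, 5 genes lay below the trend. The cause of these changes was not tested.

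With the gene length trend removed, without and with the replicate block, medians of log2 fold change moved to -0.09 and -0.088 for all 80 genes, -0.098 and -0.097 for the large subunit, -0.22 for the tunnel exit, 0.0053 for message entry and exit, -0.1 and -0.11 for paralogs, -0.06 and -0.068 for their parents, 0.2 for choroid plexus, -0.24 for radial glia and -0.17 for pseudogene-named rows. The cause was not tested.

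Leaving out each library in turn, where the lone library is assumed to vary like the other group, gave 4 (without control 1) to 11 called genes, 3 to 9 lower and 0 to 2 higher, and 0 (without Lhx2 cKO 2) to 5 genes off the trend, 0 to 3 lower and 0 to 2 higher. Without Lhx2 cKO 2, where 0 were called higher in edgeR, 2 were higher at an unadjusted p under 0.05. Medians ranged from -0.1 to -0.022 for the small subunit, -0.073 to -0.042 for the large subunit, -0.055 to 0.082 for the stalk, -0.28 to -0.16 for the 5S pair, -0.2 to -0.16 for the tunnel exit, -0.064 to 0.083 for message entry and exit, -0.12 to -0.038 for Diamond-Blackfan genes, -0.12 to 0.036 for paralogs, -0.061 to -0.0092 for their parents, -0.12 to 0.095 for ribosomal components of other symbols, -0.0058 to 0.062 for mitochondrial ribosomal proteins, -0.079 to 0.01 for supply regulators, -0.61 to -0.17 for red blood cells, 1.18 to 1.41 for microglia, 0.23 (without control 1) to 0.62 for vascular cells, -0.85 to -0.44 for cycling cells, 0.068 to 0.12 for neurons and 0.22 to 0.25 for choroid plexus. The median of all 80 genes ranged from -0.062 to -0.033. The difference in summed share ranged from -0.062 to -0.0293 percentage points. The median over all genes tested lay between -0.00706 (library totals alone) and 0.00554 (upper-quartile factors) under the scalings. The split of genes at 50% shared sequence was added after seeing the data.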
